A study of Rattus norvegicus with 11 samples.

Results

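The transcripts of the 4 receptors for prostaglandin E2 (PGE2), Ptger1 to Ptger4, were followed in 11 libraries from rat sensory neurons of the dorsal root ganglion. The members were taken by gene name, and all 4 were found among the 22076 genes of the deposited table. They encode the receptors EP1, EP2, EP3 and EP4. In the Schwann cell conditioned medium (SCCM) group there were 4 cultures, in the PGE2 group (1 µM) 4 cultures and in the untreated group 3 cultures. All were wild-type neurons of Sprague-Dawley embryos at embryonic day 15, purified by immunopanning, treated overnight from day 13 in vitro and lysed on day 14. Each replicate stands for 1 pregnant rat, whose 10 to 18 embryos were pooled, per the design text. The labels do not say how the conditioned medium was prepared or whether untreated cultures received a vehicle.

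PGE2 is a lipid made from arachidonic acid, and it acts on neurons through cell-surface receptors coupled to G proteins. EP2 and EP4 couple to Gs and raise cyclic AMP, EP3 mainly couples to Gi and lowers it, and EP1 is linked to calcium mobilisation. In adult sensory neurons PGE2 is known for sensitising nociceptors, in good part through protein kinase A and sodium channels. The series title concerns PGE2 from Schwann cells and the excitability of sensory neurons during development, which makes the receptors present on these neurons a question of its own.

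Levels are in FPKM, a unit the authors computed that divides fragments by transcript length and by sequencing depth, so levels of different genes can be set side by side. Read totals are not given. As an estimate from the steps of rarely seen genes, the deepest library was 1.30-fold above the shallowest, with misfits between pairs of libraries of up to 0.11 log2. The 12 pan-neuronal markers were present in every library, at levels from 4.55 FPKM (Isl1) and 7.81 FPKM (Nefh) up to 2710 FPKM (Stmn2). They summed to between 6978 and 10044 FPKM in SCCM, 8487 and 9972 in PGE2 and 4925 and 8743 in untreated libraries. The 10 nociceptor markers summed to 436 to 648 FPKM in SCCM, 415 to 613 in PGE2 and 255 to 419 in untreated libraries. Among 15 glial markers, 7 never reached 1 FPKM, including Mbp, Sox10 and Erbb3, and Gfap was listed at 0 throughout. The glial sum was 218 to 370 FPKM in SCCM, 161 to 279 in PGE2 and 120 to 225 in untreated libraries. To it Ngfr, which sensory neurons express too, gave 101 to 260 FPKM in SCCM, 44.6 to 183 in PGE2 and 29.1 to 107 in untreated libraries. Pmp22, a myelin protein gene, gave 41.2 to 84.95, 41.1 to 76.7 and 21.6 to 73.9 FPKM in the same order. Mpzl1 gave 33.9 to 52.2, 37.7 to 55.4 and 39.8 to 57.85 FPKM. Every other member stayed at or under 9.23 FPKM (S100b). Of the macrophage and immune markers, 10 of 12 stayed under 1 FPKM, among them Ptprc, Aif1 and Csf1r. That list summed to 0.18 to 15.4 FPKM in SCCM, 0.19 to 14.9 in PGE2 and 4.14 to 46.3 in untreated libraries, and where it passed 1 FPKM most of it was Cd68, a lysosomal gene. Under 1 FPKM throughout were also 7 of 9 endothelial and mural markers and 7 of 9 fibroblast markers, and the fibroblast sum, 219 to 849 FPKM in SCCM, 799 to 973 in PGE2 and 344 to 850 in untreated libraries, was almost all Thy1, which neurons express too. The part of other cells in the receptor levels was not tested. On the first principal component, with 56.0% of the variance, SCCM replicates 2 and 3 and PGE2 replicates 3 and 4 stood together at its positive end (scores of 40.0 to 55.8, against −60.8 to 7.62 in the other libraries). In bulk RNA, fewer cells of a type and less RNA per cell cannot be told apart.

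Transcripts of all 4 EP receptors were present at low levels in every library, and none was listed at 0. Ptger2 averaged 4.44 FPKM over the 11 libraries, Ptger1 3.43, Ptger3 1.51 and Ptger4 1.11. Between 40.5% of all genes (for Ptger2) and 54.1% (for Ptger4) had a higher mean level. The 4 receptors together came to 6.86 to 14.99 FPKM in SCCM, 5.61 to 14.8 in PGE2 and 3.29 to 15.4 in untreated libraries.

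The prostanoid receptor with the highest level was none of them. Ptgir, which encodes the prostacyclin receptor, another Gs-coupled receptor, measured 130, 224, 201 and 101 FPKM in SCCM replicates 1 to 4. It measured 27.6, 83.6, 154 and 85 FPKM in PGE2 replicates 1 to 4, and 144, 107 and 26.7 FPKM in untreated replicates 1 to 3. Ptgir lay above the sum of the 4 EP receptors in all 11 libraries, by 4.91-fold to 17.8-fold, and ranked 567 of 22076 genes by mean level. Its log2 change was 1.05 for SCCM against untreated (95% interval −0.31 to 2.41, limma adjusted p = 0.383), −0.0061 for PGE2 against untreated (−1.37 to 1.35, limma adjusted p = 0.996) and 1.06 for SCCM against PGE2 (−0.20 to 2.32, limma adjusted p = 1.000).

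The other prostanoid receptors with a row were rarer. Ptgdr2, a receptor for prostaglandin D2, reached 2.37 FPKM in SCCM replicate 1, 1.79 in PGE2 replicate 2 and 1.82 in untreated replicate 2, and stayed at or under 0.60 in the other 8 libraries. Tbxa2r, the thromboxane receptor, lay between 0.41 and 0.95 FPKM in SCCM, 0.16 and 0.84 in PGE2 and 0.31 and 1.12 in untreated libraries. Ptgfr, the receptor for prostaglandin F2 alpha, was listed at 0 in 8 of 11 libraries and reached at most 0.38 FPKM. Ptgfrn, a membrane protein that binds Ptgfr and is not a prostanoid receptor itself, measured 1.14 to 7.46 FPKM in SCCM, 0.88 to 6.5 in PGE2 and 4.60 to 6.38 in untreated libraries.

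**Figure D1:**
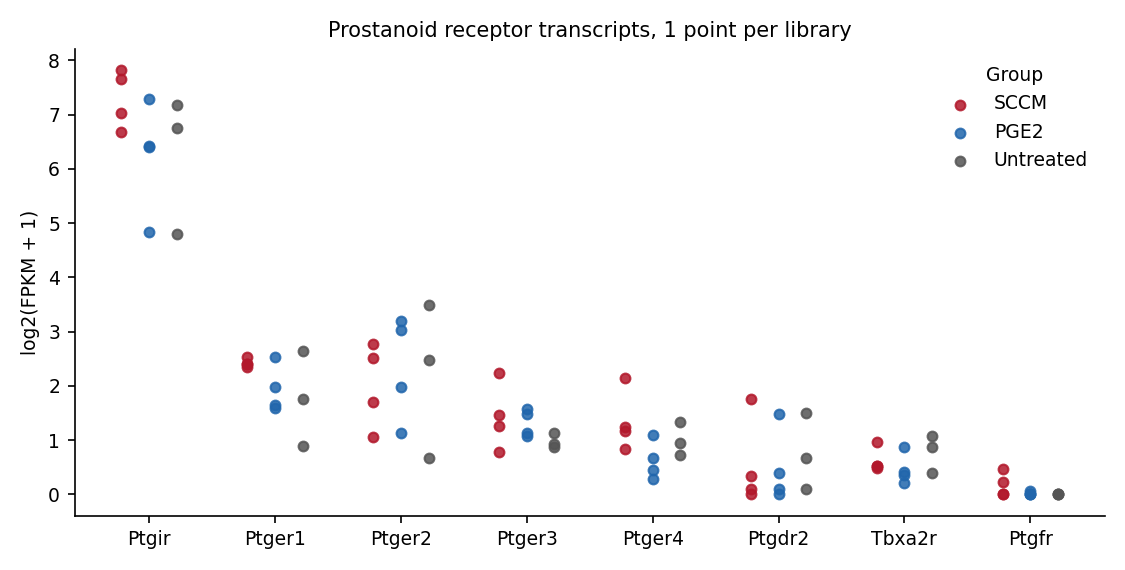
Level of 8 prostanoid receptor genes (x axis) as log2(FPKM + 1) (y axis), 1 point per library, coloured by group. Ptgir lay between 26.7 and 224 FPKM, above every EP receptor in all 11 libraries, and Ptgfr was at 0 in 8 of them.

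Which EP receptor was most abundant differed between libraries. Ptger1 was the highest of the 4 in 5 libraries (SCCM replicates 2, 3 and 4, PGE2 replicate 1 and untreated replicate 1). Ptger2 was the highest in 5 others (SCCM replicate 1, PGE2 replicates 2, 3 and 4 and untreated replicate 2). In untreated replicate 3 all 4 lay between 0.59 and 0.93 FPKM, with Ptger4 first by 1.02-fold. Ptger1 and Ptger2 took the first 2 places in 9 libraries. Ptger4 was the lowest in 7 libraries, Ptger3 in 3 and Ptger2 in 1.

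Taken pairwise within libraries on the log2(FPKM + 1) scale, the level of Ptger1 did not differ from that of Ptger2 beyond the spread between libraries (mean difference −0.12 ± 0.93 SD, n = 11, exact paired permutation p = 0.677). Ptger1 was above Ptger3 in 10 of 11 libraries by a mean of 0.80 (adjusted p = 0.0059) and above Ptger4 in 10 of 11 by 1.07 (adjusted p = 0.0059), by exact paired permutation tests. Ptger2 was above Ptger3 in 9 of 11 libraries by 0.92 (adjusted p = 0.022) and above Ptger4 in 10 of 11 by 1.19 (adjusted p = 0.0059), by the same exact test. Ptger3 and Ptger4 did not differ beyond the spread (0.28 ± 0.58 SD, n = 11, exact permutation adjusted p = 0.172). The p-values are two-sided and adjusted over these 6 pairs. They take the 11 libraries as independent. The labels do not say whether same-numbered cultures of different groups came from the same rat, and if they did the p-values would be too low. Over the 11 libraries of all groups together, Ptger1 and Ptger2 were thus each above Ptger3 and Ptger4, with no order established within either pair. The order was not tested within a group. In untreated replicate 3 Ptger1 (0.86 FPKM) and Ptger2 (0.59) lay below Ptger3 (0.91) and Ptger4 (0.93).

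As shares of the summed receptor FPKM, Ptger1 made up 28.6 to 62.2% in SCCM, 16.3 to 52.8% in PGE2 and 15.5 to 46.1% in untreated libraries. Ptger2 made up 15.7 to 39.2% in SCCM, 21.0 to 58.2% in PGE2 and 17.9 to 66.9% in untreated libraries. The Gs-coupled receptors, Ptger2 and Ptger4 together, took 42.1 ± 15.9% in SCCM (SD, n = 4), 49.9 ± 17.6% in PGE2 (SD, n = 4) and 56.4 ± 17.5% in untreated libraries (SD, n = 3). Those differences were smaller than the spread between cultures. The exact two-sided permutation p was 0.314 for SCCM against untreated, 0.629 for PGE2 against untreated and 0.571 for SCCM against PGE2, where the smallest possible p was 0.0286, and the adjusted p was 0.629 in each.

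**Figure D2:**
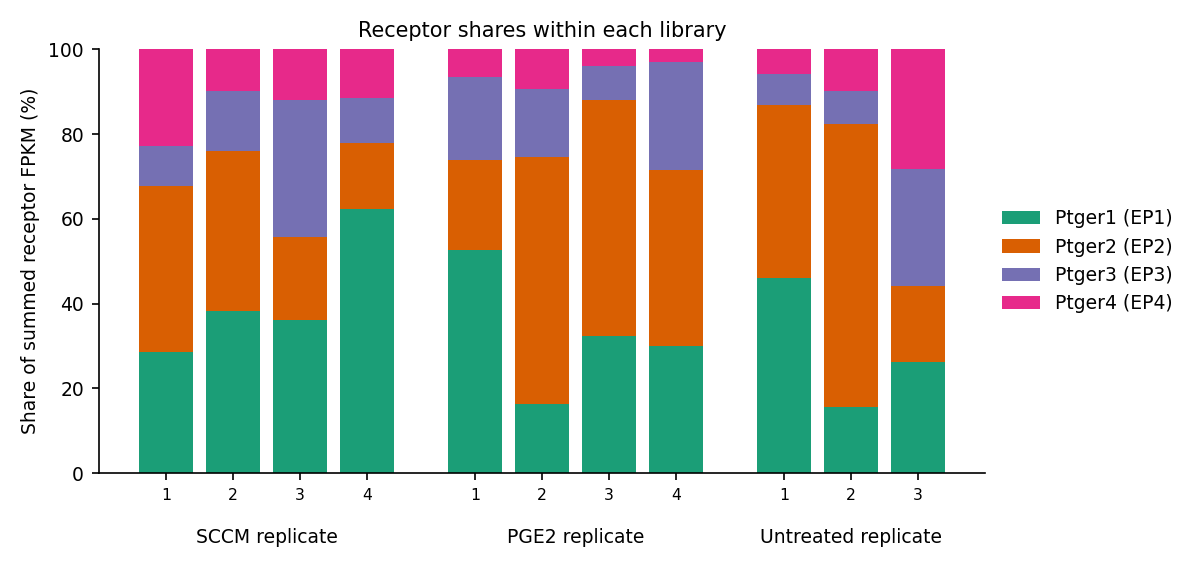
Share of each EP receptor in the summed FPKM of the 4 (y axis, percent) in each library (x axis, by group and replicate). Ptger1 and Ptger2 make up most of the bar in 10 of the 11 libraries, and untreated replicate 3 is the exception, with 28.3% Ptger4 and 27.7% Ptger3.

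Ptger1, the EP1 gene, measured 4.29, 4.79, 4.11 and 4.27 FPKM in SCCM replicates 1 to 4. It measured 2.96, 2, 4.77 and 2.12 FPKM in PGE2 replicates 1 to 4, and 5.21, 2.39 and 0.86 FPKM in untreated replicates 1 to 3. The SCCM values lay close together (coefficient of variation 6.75%, against 43.2% in PGE2 and 78.3% in untreated libraries), inside the untreated range, so that the groups overlapped. Mean levels were 4.37 ± 0.29 FPKM in SCCM (SD, n = 4), 2.96 ± 1.28 in PGE2 (SD, n = 4) and 2.82 ± 2.21 in untreated libraries (SD, n = 3). The log2 change was 0.66 for SCCM against untreated (95% interval −0.13 to 1.44, limma adjusted p = 0.368) and 0.17 for PGE2 against untreated (−0.61 to 0.96, limma adjusted p = 0.811). Untreated replicate 3 weighed on both: without it the values were 0.22 and −0.26. Without untreated replicate 1 the first was 1.09, again not called (limma adjusted p = 0.204).

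Ptger2, the EP2 gene, had the largest within-group SD of the 4 on the log2(FPKM + 1) scale. It measured 5.87, 4.75, 2.24 and 1.08 FPKM in SCCM replicates 1 to 4. It measured 1.18, 7.14, 8.22 and 2.94 FPKM in PGE2 replicates 1 to 4, and 4.59, 10.29 and 0.59 FPKM in untreated replicates 1 to 3. The untreated libraries alone spanned 17.4-fold and enclosed every treated value. The within-group SD on the log2 scale was 1.05, larger than in 96.6% of 2410 tested genes with a mean within 1.5-fold of that of Ptger2 (median 0.35). For Ptger1, Ptger3 and Ptger4 the same percentiles were 75.1, 55.9 and 61.2. By the coefficient of variation of FPKM over all 11 libraries, Ptger4 (78.2%) was above Ptger2 (71.8%). The log2 change of Ptger2 was −0.20 for SCCM against untreated (−1.71 to 1.30, limma adjusted p = 0.882) and 0.12 for PGE2 against untreated (−1.39 to 1.62, limma adjusted p = 0.938), so changes of more than 2-fold in either direction were not resolved.

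Ptger3, the EP3 gene, which gives rise to several receptor isoforms by splicing that the gene-level table does not separate, measured 1.40, 1.77, 3.70 and 0.72 FPKM in SCCM replicates 1 to 4. It measured 1.10, 1.99, 1.18 and 1.79 FPKM in PGE2 replicates 1 to 4, and 0.84, 1.20 and 0.91 FPKM in untreated replicates 1 to 3. Of the treated libraries, 5 of 8 lay above the highest untreated value, and SCCM replicate 4 lay below the lowest. The log2 change was 0.45 for SCCM against untreated (−0.21 to 1.12, limma adjusted p = 0.415) and 0.33 for PGE2 against untreated (−0.33 to 0.99, limma adjusted p = 0.592). Without SCCM replicate 3, which held the highest value, the first was 0.19.

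Ptger4, the EP4 gene, measured 3.43, 1.24, 1.36 and 0.79 FPKM in SCCM replicates 1 to 4. It measured 0.37, 1.14, 0.60 and 0.22 FPKM in PGE2 replicates 1 to 4, and 0.65, 1.51 and 0.93 FPKM in untreated replicates 1 to 3. In PGE2 cultures 3 of 4 values lay below the lowest untreated value, and in SCCM cultures 1 of 4 lay above the highest. The log2 change was 0.35 for SCCM against untreated (−0.35 to 1.05, limma adjusted p = 0.539) and −0.37 for PGE2 against untreated (−1.07 to 0.33, limma adjusted p = 0.579). Between SCCM and PGE2 it was 0.72 (0.071 to 1.37), with an unadjusted limma p of 0.033, the only one under 0.05 among the receptors, and an adjusted p of 1.000. The 2 groups overlapped, since PGE2 replicate 2 lay above SCCM replicate 4. Without SCCM replicate 1, which held the highest value, the difference was 0.45 against PGE2 (limma adjusted p = 0.894) and 0.081 against untreated. With a pseudocount of 0.1 in place of 1 it was 1.39 against PGE2 (limma adjusted p = 1.000).

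**Figure D3:**
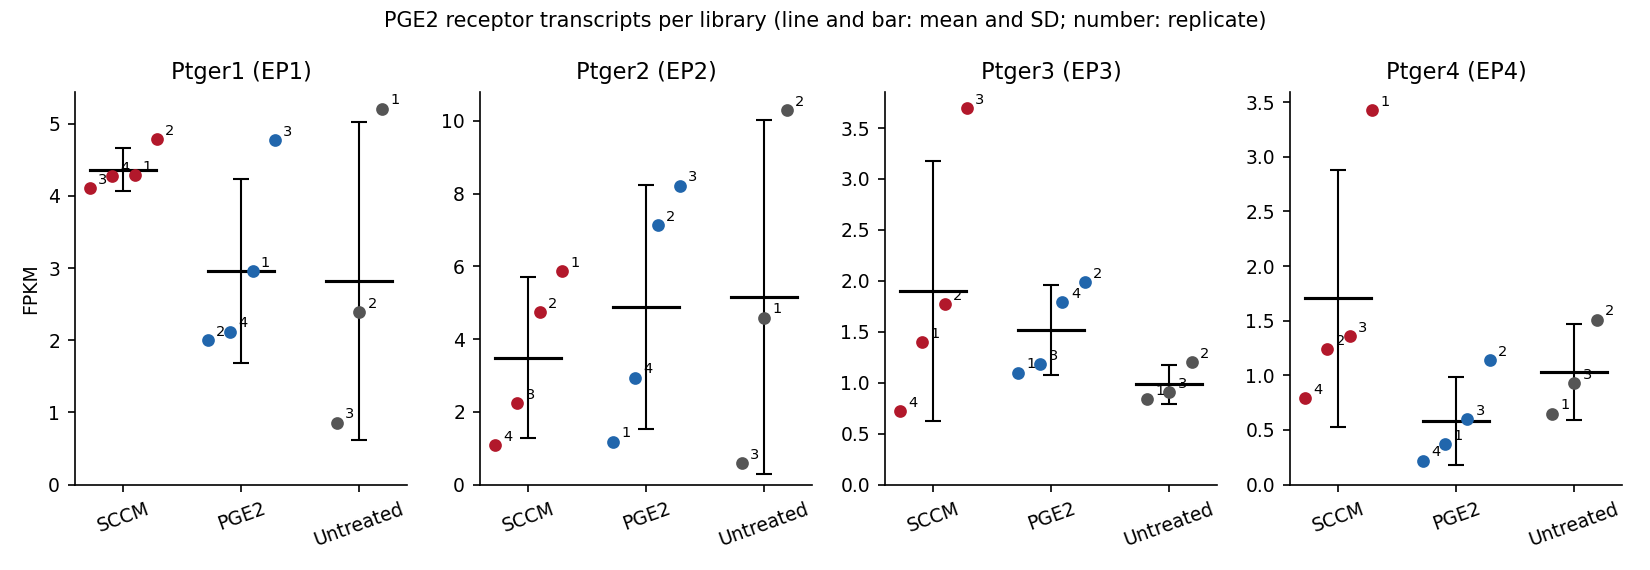
FPKM (y axis) of Ptger1, Ptger2, Ptger3 and Ptger4 by group (x axis), 1 point per library labelled with its replicate number, with the mean as a line and the SD as a bar. The 4 SCCM libraries lie within 4.11 to 4.79 FPKM for Ptger1, and the 3 untreated libraries spread from 0.59 to 10.29 FPKM for Ptger2.

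In the direct comparison of SCCM with PGE2, Ptger1 differed by 0.49 (−0.24 to 1.21), Ptger2 by −0.32 (−1.71 to 1.07) and Ptger3 by 0.12 (−0.49 to 0.74), each with a limma adjusted p of 1.000. The comparisons with untreated cultures share the 3 untreated libraries, and this one does not use them as controls.

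Limma called 0 of the 4 receptors in each of the 3 comparisons, against 0% of 12107 tested genes for SCCM against untreated, 0% for PGE2 against untreated and 0.00826% (1 gene) for SCCM against PGE2. At an unadjusted p under 0.05 there were 0 of 4 for SCCM against untreated (13.6% of tested genes), 0 of 4 for PGE2 against untreated (5.72%) and 1 of 4 for SCCM against PGE2 (3.28%). For none of the receptors were 2 groups free of overlap, against 10.6%, 5.33% and 2.21% of tested genes in the same order of comparisons. The median log2 change of the 4 receptors was 0.40, 0.14 and 0.31, against −0.13, −0.16 and 0.02 over all tested genes. Median-ratio scaling moved the median of all genes by over 0.1 in the comparisons with untreated cultures, to −0.011 for SCCM and −0.016 for PGE2, and every receptor kept the sign of its change in all 3 comparisons under it and under quantile normalization. Without the 4 libraries at the positive end of the first principal component, limma again called none of the receptors (lowest adjusted p = 0.883), with only 7 libraries left.

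**Figure D4:**
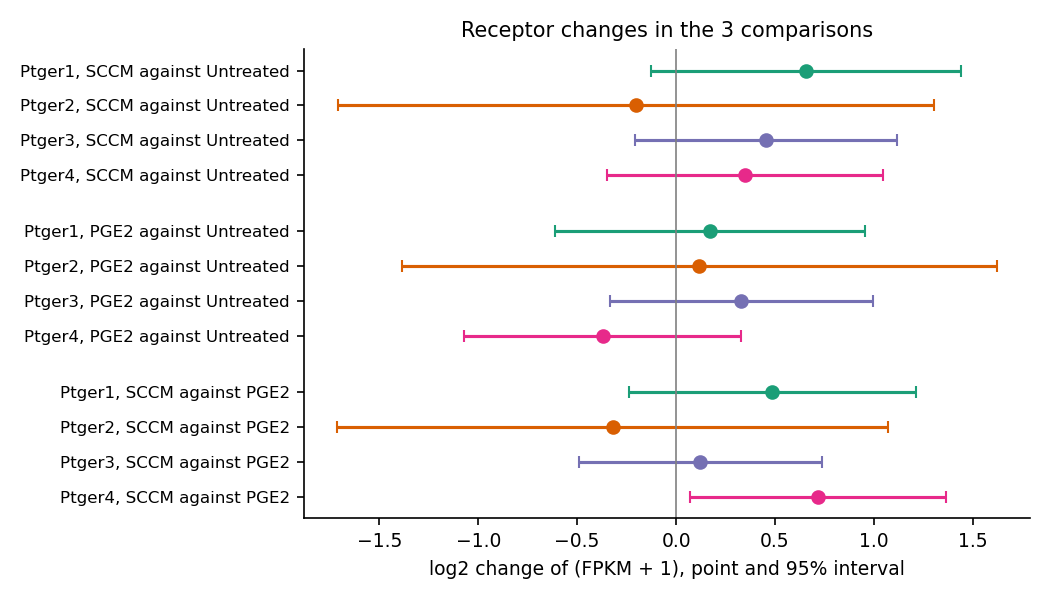
Log2 change of (FPKM + 1) with its 95% interval (x axis) for each receptor in the 3 comparisons (rows), from limma. Of the 12 intervals, 11 include 0, and that of Ptger4 for SCCM against PGE2 runs from 0.071 to 1.37 with an adjusted p of 1.000.

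No correlation between EP receptors across libraries passed a test, which does not show that they vary independently. Over the 11 libraries Pearson's r between receptor pairs ran from 0.058 (Ptger1 and Ptger3) to 0.36 (Ptger2 and Ptger4), and Spearman's rho from −0.24 (Ptger1 and Ptger3) to 0.36 (Ptger2 and Ptger3). The p-values came from permutation tests (lowest adjusted p = 0.577 for r and 0.522 for rho, over 10 relations). These tests, too, take the 11 libraries as independent. For Ptger2 and Ptger4, r was 0.36 (permutation p = 0.290), 0.60 on residuals from the group means (permutation adjusted p = 0.173) and 0.41 without the 2 libraries farthest from the median of Ptger2 (exact permutation p = 0.271).

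The other 4 relations, of each EP receptor with Ptgir, were added after the levels of Ptgir were seen. Ptger1 had the closest one, with r = 0.75 (permutation p = 0.0090, adjusted p = 0.090) and rho = 0.79 (permutation p = 0.0057, adjusted p = 0.057), which missed the threshold after adjustment. With median-ratio scaling the adjusted permutation p was 0.047 for r (0.78) and 0.0062 for rho (0.88). Without untreated replicate 3 and PGE2 replicate 2, the 2 libraries farthest from the median of Ptger1, r was 0.57 (exact permutation p = 0.105), so the relation rests in part on them. On residuals from the group means r was 0.66 (permutation adjusted p = 0.132). Ptger2 and Ptgir had r = 0.59 (permutation adjusted p = 0.273), and on residuals r was 0.80 (permutation adjusted p = 0.035) with a rho of 0.67 (permutation adjusted p = 0.153). Residuals are centred on their group means and so are not freely exchangeable. Permutation p-values on residuals, here and for Ptger2 with Ptger4, can therefore come out too low.

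**Figure D5:**
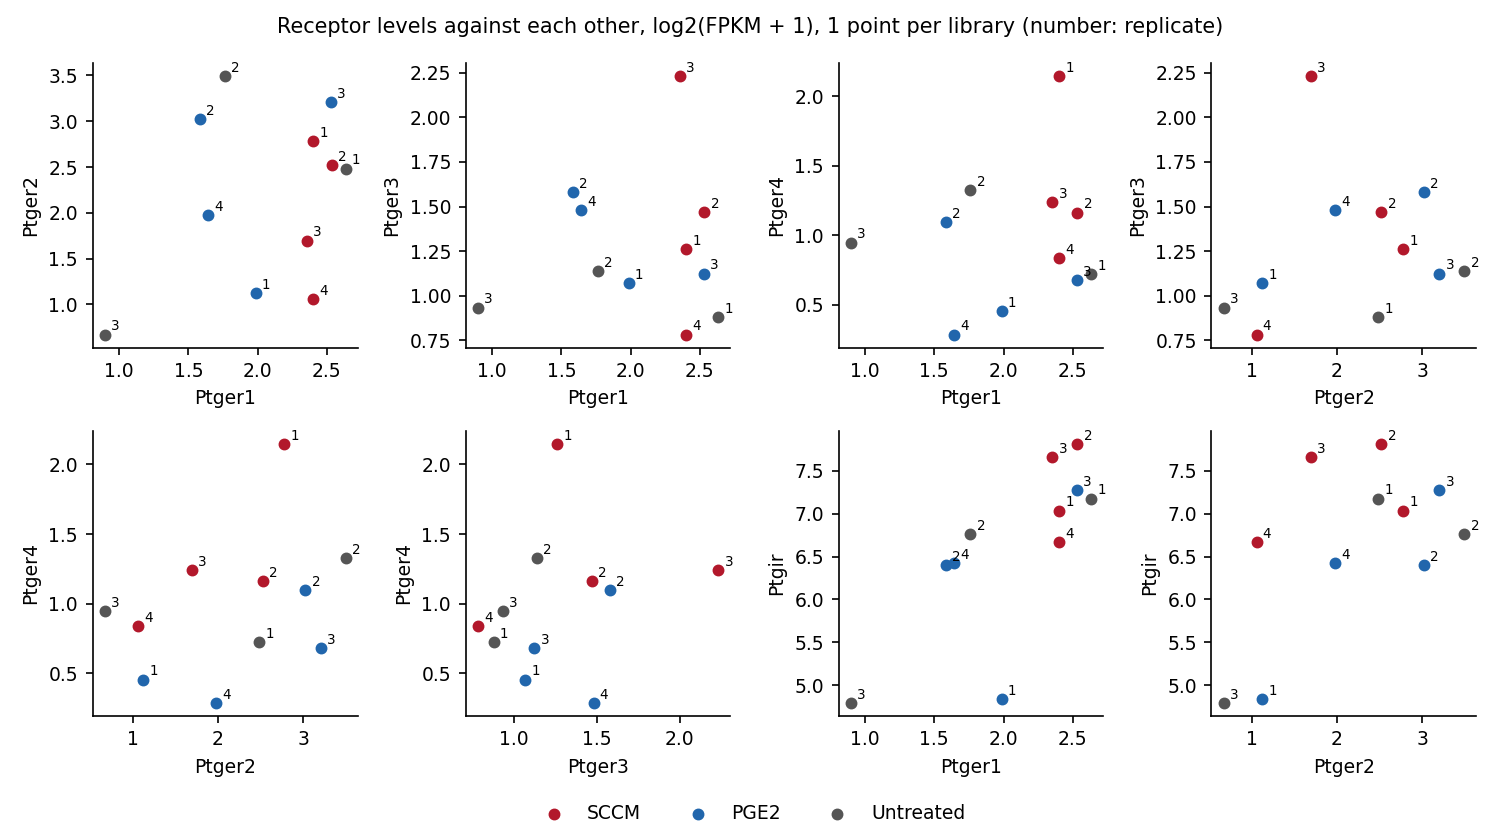
Levels as log2(FPKM + 1) of the 6 pairs of EP receptors and of Ptgir against Ptger1 and Ptger2, 1 point per library labelled with its replicate number and coloured by group. Points scatter widely in the 6 pairs of EP receptors (r of 0.058 to 0.36), and Ptgir and Ptger1 have the highest r shown, 0.75.

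Genes whose levels ranked most like a receptor over the 11 libraries are given as a description only, since 12107 genes were searched. For Ptger1 these were Mus81, a DNA repair nuclease (rho = 0.95), Tlx3, a homeobox factor (0.92), Trpv2, a cation channel of sensory neurons (0.92), Wdr63 (0.91) and Ptpn3 (0.91). For Ptger2 they were Slc17a8, a vesicular glutamate transporter (0.94), Tmem62 (0.94), Pcdh12 (0.93), Zc3hav1 (0.93) and Ppp6r1 (0.93). For Ptger3 they were Nmb, which encodes the peptide neuromedin B (0.87), Chrnb3, a nicotinic receptor subunit (0.87), Stmn3 (0.86), Tmem233 (0.85) and Cnot8 (0.82). For Ptger4 they were Rsl24d1, a ribosome biogenesis factor (0.98), Bles03 (0.95), Ankrd13c (0.94), Slc35a4 (0.93) and AABR07015057.1 (0.92). No gene stood in more than 1 of these lists, which share the same 11 libraries.

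Transcripts of Gnas, Gnaq and the Gi genes, for G proteins that EP receptors use, were far more abundant than those of the receptors. Among the other alpha subunit genes Gna14 and Gna15 were not, with means of 3.72 and 0.061 FPKM over all libraries. Gnas, which encodes the alpha subunit of Gs, averaged 1020 FPKM in SCCM, 1136 in PGE2 and 1136 in untreated libraries. Gnaq, of Gq, averaged 202, 170 and 115 FPKM in the same order, and the Gi genes Gnai1, Gnai2 and Gnai3 lay between 34.4 and 111 FPKM over all libraries. Of 12 tested alpha subunit genes 0 were called in any comparison, and 7 had higher means in SCCM than in untreated libraries and 8 in PGE2 than in untreated libraries (medians of 0.13 and 0.17). The largest log2 changes were those of Gna14, a Gq-family gene, for SCCM against untreated (1.85, limma adjusted p = 0.357) and Gnal, of the Gs family, for PGE2 against untreated (0.86, limma adjusted p = 0.538). Without the 4 libraries at the positive end of the first principal component they were 0.90 and 0.50.

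Among genes that act after the receptor, limma also called 0 of 7 adenylyl cyclases, 0 of 11 protein kinase A and Epac genes, 0 of 10 cAMP phosphodiesterases, 0 of 7 phospholipase C and protein kinase C genes and 0 of 15 cAMP-induced genes in each comparison. For SCCM against untreated the largest log2 changes in these lists were those of Adcy1 (1.16), Rapgef4, which encodes the cAMP sensor Epac2 (1.26), Pde10a (1.22), Prkce (0.89) and Fosb (−1.58). For PGE2 against untreated they were those of Adcy1 (1.06), Rapgef4 (0.96), Pde10a (0.84), Prkce (0.84) and Junb (−1.53). These changes moved with the 4 libraries at the positive end of the first principal component. Those 4 are all treated and were picked by scores from these same values. Leaving them out therefore tends to shrink changes of genes that follow that component. Adcy1 measured 2.83, 3.21, 14.95 and 14.1 FPKM in PGE2 replicates 1 to 4, against 3.16, 3.13 and 2.14 FPKM in untreated replicates 1 to 3, and Junb measured 33.3, 62.8, 3.04 and 1.38 FPKM against 17.5, 42.5 and 51.7 FPKM. Without those 4 libraries the changes for PGE2 against untreated were 0.088 for Adcy1, 0.060 for Rapgef4, 0.49 for Pde10a, 0.12 for Prkce and 0.42 for Junb, whose sign turned. For SCCM against untreated they were then 0.34 for Adcy1, 0.67 for Rapgef4, 0.75 for Pde10a, 0.38 for Prkce and −0.93 for Fosb. The median of the cAMP-induced genes was −0.60 for SCCM and −0.76 for PGE2 against untreated, with 4 and 3 of 15 means higher, beside −0.13 and −0.16 over all tested genes. Without the same 4 libraries it was −0.43 for SCCM and −0.040 for PGE2, with 6 and 7 of 15 means higher, beside −0.030 and −0.051 over all tested genes.

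Of 8 tested receptor kinase and arrestin genes 0 were called. Arrb1, which encodes beta-arrestin 1, an adaptor that desensitises and internalises G protein-coupled receptors, had the largest change there for SCCM against untreated. It measured 34.7, 44.5, 60.6 and 39.2 FPKM in SCCM replicates 1 to 4. It measured 20.7, 16.4, 28.6 and 28.1 FPKM in PGE2 replicates 1 to 4, and 26.7, 20.6 and 9 FPKM in untreated replicates 1 to 3. All 4 SCCM libraries lay above all others, with a log2 change of 1.30 against untreated (SE 0.34, limma adjusted p = 0.357) and 0.91 against PGE2 (SE 0.31, limma adjusted p = 1.000). Of all tested genes, 10.6% had no overlap between SCCM and untreated libraries and 2.21% none between SCCM and PGE2. Without the 4 libraries at the positive end of the first principal component the changes of Arrb1 were 1.06 and 0.96. Of the 9 tested channels linked to PGE2 sensitisation 0 were called, and Scn10a differed most for both treatments against untreated, by 1.71 for SCCM and 1.28 for PGE2. It measured 18.1, 32.9, 83.7 and 89.8 FPKM in PGE2 replicates 1 to 4, against 16.2, 31.8 and 12.1 FPKM in untreated replicates 1 to 3, and without the 4 libraries that stood together the changes were 1.25 for SCCM and 0.39 for PGE2. Of the 6 tested genes of PGE2 synthesis, transport and breakdown 0 were called, with the largest change for Cbr1, a carbonyl reductase, at −1.13 for SCCM and −0.78 for PGE2 against untreated (−0.80 and −0.20 without those 4 libraries).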

How the data were processed

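The authors deposited FPKM for each library, rounded to 2 decimals. The genome build was Rnor 6.0, per the submitters' processing notes. RNA was poly-A enriched and libraries were stranded, per the labels' protocols. The sources used here do not give the aligner, counting tool, annotation or use of strand in counting. Lines without values (207489) were left out.

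The 12107 genes averaging 1 FPKM or more, all 4 receptors included, were tested as log2(FPKM + 1), which understates changes of genes this low. A limma fit (limma 3.58.1, R 4.3.3) of 3 groups with an intensity trend gave 3 two-sided comparisons, adjusted by Benjamini-Hochberg over all tested genes. Genes were called at an adjusted p under 0.05. Its code was tested on simulated data. As FPKM are not counts, no count model was used, and with read totals not given no counting interval was set. Receptor shares were compared by exact permutation, and correlations with 100000 permutations, or all of them below 10 libraries. Within a group, cultures of separate pregnant rats are the replicates.

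The alternatives tried were leaving out single libraries, blocking on replicate number, array weights, eBayes robust or without a trend, fitting 2 groups at a time, quantile normalization, median-ratio scaling, a minimum of 5 FPKM or none, and a pseudocount of 0.1. Leaving out 4 libraries together was added after seeing the data. All 4 are treated and were picked by principal component scores from these same values, and 7 libraries remain without them.

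The receptors, gene lists and tests were chosen with earlier results of these data known. Named are the receptors, other prostanoid receptors, up to 3 members of each list with the largest absolute change per comparison (0 list members were called) and the 5 genes most alike in rank to each receptor. Gnas, Gnaq and Gnai1 to Gnai3 were named for their level, and marker genes for identity.

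In the RefSeq annotation of another assembly (GRCr8), used for neighbours only, Ptger2 and Ptger4 each overlap a long noncoding RNA gene and Ptger3 a pseudogene, so fragments of these could be counted with the receptors. Ptger1 overlaps no gene there.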

Additional observations from a re-analysis of the deposited data

Results flagged for a closer look

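Among 53 named genes and the receptor shares and sums, 120 sets of 4 libraries of a treatment were examined for a library far from the other 3, and 10 were found. For normally distributed values the cutoff used gives about 1 in 20 by chance. Genes mostly at 0 FPKM are not so distributed, and many of the genes were picked for their change in these same data. The count of 10 can therefore not be set against chance. Of the receptor measures, the Ptger4 share stood apart in SCCM replicate 1, at 22.9% against 9.88 to 11.9% in the other SCCM libraries. Ptgdr2 (2.37 FPKM against 0 to 0.26) and Tbxa2r (0.95 FPKM against 0.41 to 0.44) stood apart in the same library. So did Adcy7, an adenylyl cyclase (4.94 FPKM against 0.58 to 1.02), and Fosb, an immediate early gene (6.16 FPKM against 0.08 to 0.40).

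In PGE2 replicate 2, Fosb measured 7.41 FPKM against 0.13 to 1.29 in the other PGE2 libraries, Pde1a 2.12 FPKM against 3.32 to 3.47 and Ptgfr 0.04 FPKM against 0. In PGE2 replicate 4, Gna14 measured 6.59 FPKM against 0.38 to 0.94 and Pkia, an inhibitor of protein kinase A, 274.7 FPKM against 107 to 121. What sets these libraries apart was not tested.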

How the results depend on the processing

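Of 376 alternative values, 338 kept their direction and their side of the threshold (or, for counts of called genes, stayed within 1.5-fold), 21 changed sign, 3 passed the threshold and 14 were counts that moved. Array weights put a weight of 41.1 on untreated replicate 2, did not converge and called 7314 genes for SCCM against untreated and 2 for PGE2 against untreated. Under them, for SCCM against untreated, Ptger1 (0.67), Ptger2 (−1.43) and Ptger3 (0.51) passed the threshold, Ptger4 turned to −0.086, and Ptger2 turned to −1.27 for PGE2 against untreated. With a replicate block Ptger2 turned to 0.017 for SCCM against untreated, and the 1 gene called for SCCM against PGE2 became 0, as it did with a pseudocount of 0.1 or no filter. Deviations of same-numbered libraries from their group means correlated with either sign (−0.506 to 0.493). The labels do not say whether same-numbered cultures came from the same rat, and these correlations cannot decide it. The block changed no other call.

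Leaving out each library in turn, Ptger2 ran from −0.98 to 0.44 for SCCM against untreated, from −0.66 to 0.76 for PGE2 against untreated and from −0.72 to 0.00021 for SCCM against PGE2. Ptger1 ran from −0.26 to 0.61 for PGE2 against untreated and Ptger3 from −0.14 to 0.34 for SCCM against PGE2. Called genes ran from 0 to 1 for SCCM against untreated (1 without SCCM replicate 1) and from 0 to 1 for SCCM against PGE2. The difference in the Gs-coupled share for PGE2 against untreated ran from −12.4 to 3.57 percentage points. Without SCCM replicates 2 and 3 and PGE2 replicates 3 and 4, 1 gene was called for SCCM against untreated, Ptger2 was at −0.14 for PGE2 against untreated, Ptger3 at −0.30 for SCCM against PGE2, and r of Ptger1 with Ptger3 at −0.23. On residuals from the group means, r of Ptger1 was −0.21 with Ptger3 and −0.14 with Ptger4. Without the 2 farthest libraries, r was −0.095 for Ptger1 with Ptger3 and −0.27 for Ptger2 with Ptger3. The causes were not tested. No receptor reached the filter at 5 FPKM, so it gave no receptor values. At levels near 1 FPKM, as for Ptger3 and Ptger4, the pseudocount sets much of the scale: with 0.1 in place of 1, Ptger4 differed by −0.84 for PGE2 against untreated.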

Other observations

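Ptger4 and Ptgdr2 were highest in the same library of each group, a pattern noticed after their values were seen and given without a test. SCCM replicate 1, PGE2 replicate 2 and untreated replicate 2 held the highest Ptger4 of their groups (3.43, 1.14 and 1.51 FPKM) and also the highest Ptgdr2 (2.37, 1.79 and 1.82 FPKM). The pattern was not particular to these 2 genes. In the same 3 libraries, in the same order, Egr1 (30.98, 13.32 and 29.63 FPKM), Fosb (6.16, 7.41 and 12.45) and Gnas (1268, 1386 and 1269) were also highest of their groups. So was the number of genes above 0 FPKM (17137, 16659 and 16892). Scores on the first principal component of these 3 libraries were −27.9, −37.6 and −38.9. Ptgir, Ptger1 and Ptger2 were all lowest, over all libraries, in untreated replicate 3, at 26.7, 0.86 and 0.59 FPKM, as were other neuronal genes such as Scn10a (12.1 FPKM) and Nefh (7.81 FPKM).

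The cyclooxygenase genes, which make the precursor of PGE2, were at low levels in these cultures. Ptgs2, the inducible cyclooxygenase, lay between 0.13 and 0.18 FPKM in SCCM, 0.05 and 0.22 in PGE2 and 0.09 and 0.39 in untreated libraries. Ptgs1, the constitutive one, stayed under 1 FPKM in every library (0.03 to 0.63 in SCCM, 0.32 to 0.79 in PGE2 and 0.17 to 0.86 in untreated libraries). Hpgd, which inactivates PGE2, and Slco2a1, which carries it into cells, were at most 0.15 and 0.09 FPKM.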
